A study of Mus musculus with 12 samples.

Results

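The genes described here are 10 named members of the NRF2 antioxidant response, of 22243 genes in the table of M1-activated bone marrow-derived macrophages (BM-Mɸs). They were taken by symbol: the regulators Nfe2l2, Keap1 and Mafg, the enzymes Hmox1, Nqo1, Gclc, Gclm, Txnrd1 and Srxn1, and the transporter Slc7a11. Each symbol matched 1 gene, together with 19 of 28808 transcripts, and all 10 genes averaged 1 TPM or more (the share of a library's transcripts, as a level scaled for transcript length), as did 8780 genes in all. BM-Mɸs were grown with M-CSF from 6 mice of LysMCre/ErbB4-floxed genotype (ErbB4myeKO) and 6 ErbB4-floxed littermates without Cre (ErbB4FF), all on a C57Bl/6 background and 1 of each genotype from each of 6 litters. In LysMCre mice the recombinase sits in Lyz2 and acts in myeloid cells in general. All 12 cultures were primed for 16 h with IFN-γ (100 U/mL) and stimulated for 6 h with LPS (100 ng/mL), the classical proinflammatory (M1) activation, so that no resting macrophages are compared here. The methods of the study name mice of both sexes and an age of 8 to 12 weeks for its C57Bl/6J mice, but neither is on the labels of the samples.

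NRF2, encoded by Nfe2l2, is a transcription factor that is made continuously and, in unstressed cells, is bound by KEAP1 and handed to a ubiquitin ligase for degradation. Electrophiles and oxidants modify cysteines of KEAP1, NRF2 then accumulates in the nucleus, pairs with a small MAF protein such as MAFG, and binds antioxidant response elements in the promoters and enhancers of its targets. NRF2 activity is therefore set largely at the level of the protein, which RNA sequencing does not measure. In macrophages LPS induces both reactive oxygen species and the electrophilic metabolite itaconate, and NRF2 is known to restrain inflammatory cytokine genes.

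The promoters of members that were higher together are shown to let the reader see which of them carry an antioxidant response element near their start. RefSeq promoter windows of GRCm38.p6, from 250 bases before to 50 bases after each start, were found for 8 of the 10 members. The table used here has no entry for Hmox1 or Gclc. Both strands were searched for the core element TGACNNNGC, for its AP-1-like form TGACTCAGC, and, chosen after the windows had been seen, for TGANTCAGC, which includes the AP-1-like form, and for TGATGCAA, the letters of an amino acid response element, a kind of element bound by ATF4. The core element was in the window of 5 of 8 members (Nfe2l2, Mafg, Gclm, Txnrd1 and Srxn1), against 14.0% of 27025 genes with a window. By window it was in 5 of 10, against 12.4% of all windows, as Txnrd1 has 3 windows, of which 2 held no match. TGACTCAGC was in no member's window and in 0.454% of all 32851 windows. Printed below are the upstream parts of 4 windows, 5′ to 3′ on the strand of the gene, with the matches in capitals and bases annotated as exon left out. They are Srxn1 (chr2:152105274-152105515, + strand, TGANTCAGC), Gclm (chr3:122245307-122245556, + strand, core element), the Txnrd1 start with a match (chr10:82859009-82859178, + strand, core element) and Slc7a11 (chr3:50443615-50443863, - strand, TGATGCAA on each strand).
Srxn1: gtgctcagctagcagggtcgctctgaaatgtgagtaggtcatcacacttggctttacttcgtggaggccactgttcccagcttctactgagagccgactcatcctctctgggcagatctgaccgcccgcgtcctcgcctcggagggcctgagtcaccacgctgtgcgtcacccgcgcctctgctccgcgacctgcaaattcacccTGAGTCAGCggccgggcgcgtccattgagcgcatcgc
Gclm: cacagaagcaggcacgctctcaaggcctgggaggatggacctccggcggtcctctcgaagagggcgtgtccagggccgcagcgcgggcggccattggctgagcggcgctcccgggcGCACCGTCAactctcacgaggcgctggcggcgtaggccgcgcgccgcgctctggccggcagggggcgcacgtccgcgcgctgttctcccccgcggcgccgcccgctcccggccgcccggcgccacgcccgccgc
Txnrd1: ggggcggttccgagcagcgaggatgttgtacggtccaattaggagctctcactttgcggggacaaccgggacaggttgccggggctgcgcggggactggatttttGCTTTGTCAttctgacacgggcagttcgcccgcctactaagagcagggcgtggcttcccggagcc
Slc7a11: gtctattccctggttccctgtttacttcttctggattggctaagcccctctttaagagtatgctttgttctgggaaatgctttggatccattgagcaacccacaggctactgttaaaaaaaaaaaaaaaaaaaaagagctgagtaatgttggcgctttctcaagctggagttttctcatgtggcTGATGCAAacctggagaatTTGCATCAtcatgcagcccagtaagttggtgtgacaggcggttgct

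Counted from the annotated start, the Srxn1 match TGAGTCAGC begins at -45, and TGANTCAGC was in 1.19% of all windows. A core element of Srxn1 lies after its start, at 29. The core elements of Gclm and Txnrd1 are on the opposite strand and begin at -134 and -92. The Nfe2l2 window has TGACTCCGC at -240, within an exon annotated for another gene, and the Mafg window has a core element on the opposite strand at -222. The Slc7a11 window held neither form of the antioxidant response element, but had TGATGCAA at -66 and, on the opposite strand, at -47, an octamer in 0.895% of all windows. A match is a run of letters and not a measured site, and elements farther from the start would not be seen in these windows.

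The libraries were first checked against their labels. Erbb4 was under 1 TPM in every library and was higher in the library labelled ErbB4myeKO in 4 of 6 litters (exact permutation p = 0.25). Lyz2 was lower in the library labelled ErbB4myeKO in litters 1 to 5 (log2 ratio -1.20 to -0.81) but higher in litter 6 (1.43). The neighbouring gene Lyz1 went the other way, with log2 ratios of 1.41 to 2.18 in litters 1 to 5 and -0.94 in litter 6. Whether the labels of the 2 libraries of litter 6 were exchanged was not tested. Samples are therefore called by their labels, and results are also given without litter 6. All 7 macrophage and all 6 M1 activation markers were present, whereas no lymphocyte marker of 6 and no erythroid marker of 7 reached 1 TPM in any library. Litter 5 stood apart, as the summed macrophage markers were 2602 to 2708 TPM there and 4215 to 7347 TPM elsewhere. The transcripts of the table made up 71.4 and 74.7% of all TPM in litter 5 and 59.0 to 64.9% in the other litters. The mean log2(TPM + 0.5) of 4 Y-linked genes was 2.06 to 2.66 in the libraries of litters 1 to 4 and -0.88 to -0.79 in those of litters 5 and 6, so that it was alike within each pair. Libraries of litter 3 had the fewest genes above 0 TPM (10214 and 10910, against 11645 to 12985). The number of reads per library is not known from the values.

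Most members were higher in the library labelled ErbB4myeKO than in its littermate, with mean differences of 26.5 to 98.4% for the 6 members that were higher in every litter. The 98.4% is that of Slc7a11, whose mean log2 ratio of 0.99 was 0.58 without litter 2. By limma with litter as a block, 7 of 10 members had an unadjusted p under 0.05 and were higher (Mafg, Hmox1, Gclc, Gclm, Txnrd1, Srxn1 and Slc7a11), against 3.83% of the 8780 genes tested. No member was lower at that threshold, against 4.38% of genes. In all 6 litters, 6 members were higher (Mafg, Hmox1, Gclm, Txnrd1, Srxn1 and Slc7a11), against 2.51% of genes, and none was lower in all 6, against 2.31%. All 6 of these members were above 0 in litter 6 (log2 ratio 0.19 to 0.72), so that none of them would be higher in 6 of 6 litters if the labels of litter 6 were exchanged. The median log2 ratio of the members was 0.39, against -0.00070 over all genes tested. No member and no other gene passed an adjusted p of 0.05 (0.0% of genes called), and the limma adjusted p of the members lay between 0.603 and 0.714. For every member the 2 groups of libraries overlapped, so that the differences show within litters and not between the groups as a whole. The members share libraries and regulators and are not independent of one another. They were also chosen with earlier results of these data known. The shares of all genes are set beside them as a description and not as a test.

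Without litter 6, limma gave 5 of 10 members an unadjusted p under 0.05 and higher, against 2.65% of 8693 genes, and 6 members were higher in all 5 litters, against 3.91%. The median log2 ratio of the members was then 0.40, and the 5 members were Mafg, Hmox1, Gclm, Txnrd1 and Srxn1. When TPM were rescaled by median ratios, 4 members in place of 6 were higher in all 6 litters (the ratios of Hmox1 and Txnrd1 in litter 5 were 0.00 and 0.02 before rescaling). Without litter 4 there were 4 members with an unadjusted p under 0.05 in limma, as Gclc, Txnrd1 and Slc7a11 no longer had one. Leaving litter out of the model as a block left no member with an unadjusted p under 0.05.

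Of the regulators, the RNA of Nfe2l2 itself hardly differed between genotypes, that of Keap1 differed in both directions, and that of Mafg was higher in each litter. Nfe2l2 (ENSMUSG00000015839, chr2:75675513-75704641, - strand) was 399, 329.7, 472, 331, 177 and 297 TPM in the libraries labelled ErbB4myeKO of litters 1 to 6 and 372, 310.5, 469.8, 293, 178 and 291 TPM in their ErbB4FF littermates. Its log2 ratio averaged 0.07 ± 0.07 (SD, n = 6 litters) and was above 0 in 5 of them (exact permutation p = 0.0625), with the same mean of 0.07 without litter 6. The groups overlapped almost entirely, with litter 3 the highest and litter 5 the lowest in both.

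Keap1 (ENSMUSG00000003308, chr9:21229730-21239361, - strand), the cysteine-rich sensor and adaptor that leads NRF2 to degradation, was 35.2, 34.8, 24.1, 41.0, 66.3 and 37.0 TPM in libraries labelled ErbB4myeKO and 32.0, 45.5, 31.8, 42.6, 57.6 and 44.0 TPM in ErbB4FF libraries of litters 1 to 6. The library labelled ErbB4myeKO had less Keap1 in 4 of 6 litters, at a mean log2 ratio of -0.12 ± 0.26 (SD, n = 6, exact permutation p = 0.281). The mean was -0.07 without litter 2 or litter 3, -0.19 without litter 5 and -0.10 without litter 6. Its groups overlapped, and litters 1 and 5 went against the other 4.

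Mafg (ENSMUSG00000051510, chr11:120625117-120633600, - strand), a small MAF protein with a DNA-binding domain but no activation domain, was 35.1, 39.3, 56.9, 32.1, 29.6 and 52.9 TPM in libraries labelled ErbB4myeKO. In the ErbB4FF libraries of the same litters it was 29.4, 26.7, 49.3, 23.2, 22.7 and 46.2 TPM. Every pair went the same way although the groups overlapped, and the log2 ratios spanned 0.19 to 0.55. The mean was 0.34 ± 0.15 (SD, n = 6), or 1.27-fold (limma SE 0.07, adjusted p = 0.603, exact permutation p = 0.03125, the smallest that 6 pairs allow). By unadjusted p in limma Mafg ranked 12 of 8780 genes, ahead of every other member. Without litter 6 its mean log2 ratio was 0.37. With the transcript of the highest mean alone it was 0.22, and 5 other members then had a smaller unadjusted p.

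**Figure D1:**
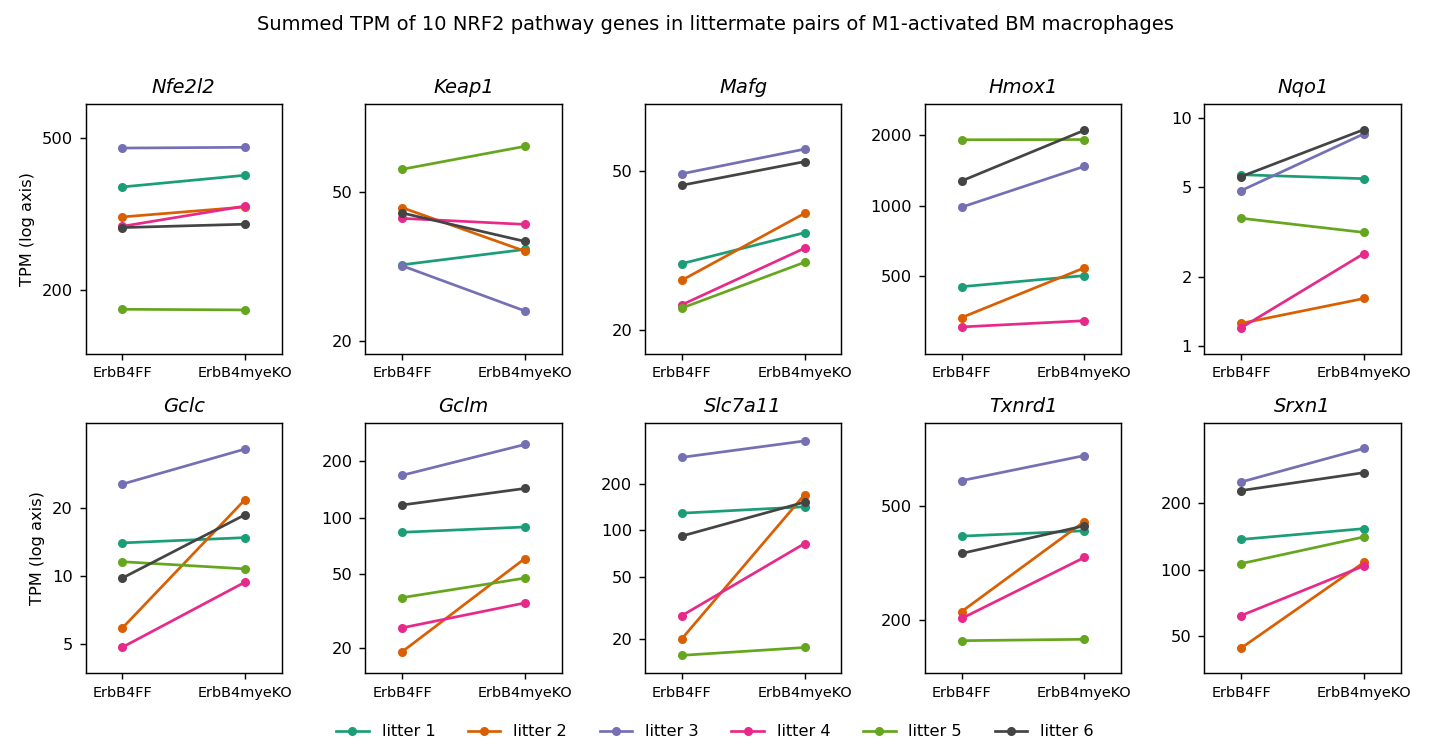
TPM of each member on log axes, 1 panel a gene, with each line joining the library labelled ErbB4FF (left) to that labelled ErbB4myeKO (right) of 1 litter. Lines for Mafg, Gclm, Slc7a11, Txnrd1 and Srxn1 slope upward in all 6 litters, those of Nfe2l2 are nearly flat, and the litters of a gene lie up to 20.0-fold apart in their means (Slc7a11).

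The heme and quinone enzymes were higher on average, with litters that differed widely. Hmox1 (ENSMUSG00000005413, chr8:75093621-75100589, + strand), heme oxygenase 1, which splits heme into biliverdin, iron and carbon monoxide, was 501, 541, 1471, 322, 1916 and 2099.7 TPM in libraries labelled ErbB4myeKO of litters 1 to 6. The ErbB4FF littermates had 449.6, 332, 984, 302, 1913 and 1274 TPM. The 2 libraries of litter 5 were 1.00-fold apart, those of litters 1 and 4 differed little, and those of litters 2, 3 and 6 differed by 1.63-, 1.49- and 1.65-fold. The mean log2 ratio of Hmox1 was 0.38 ± 0.33 (SD, n = 6, limma SE 0.12, adjusted p = 0.603, exact permutation p = 0.03125) and was 0.31 without litter 6. The difference between genotypes was small beside that between litters, whose means ranged from 312 to 1914 TPM.

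Nqo1 (ENSMUSG00000003849, chr8:107388225-107403206, - strand) reduces quinones and is among the most used reporters of NRF2 activity, yet it was the least abundant member. It was 5.43, 1.61, 8.55, 2.54, 3.15 and 8.93 TPM in libraries labelled ErbB4myeKO and 5.65, 1.25, 4.81, 1.20, 3.63 and 5.55 TPM in ErbB4FF libraries of litters 1 to 6. Litters 1 and 5 had slightly less in the library labelled ErbB4myeKO and the other 4 had more. The mean log2 ratio was 0.38 ± 0.43 (SD, n = 6, exact permutation p = 0.125), and 0.33 without litter 6. The authors' mean normalized count of its transcript was 31.8, the lowest among the main transcripts of the members.

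The genes of cystine import and glutathione synthesis were higher on average, and the widest pairs were those of litter 2. Slc7a11 (ENSMUSG00000027737, chr3:49892526-50443614, - strand) encodes xCT, which brings cystine into the cell in exchange for glutamate. It was 142, 169.7, 375, 82.3, 17.7 and 152 TPM in libraries labelled ErbB4myeKO and 129, 20.2, 294, 28.4, 15.8 and 92.0 TPM in ErbB4FF libraries of litters 1 to 6. All 6 pairs went the same way, by 8.24-fold in litter 2, by 2.87-fold in litter 4 and by 1.10- to 1.65-fold in the others. The mean log2 ratio was 0.99 ± 1.13 (SD, n = 6, limma SE 0.38, adjusted p = 0.603, exact permutation p = 0.03125). It was 0.58 without litter 2 and 1.04 without litter 6.

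Gclc and Gclm encode the catalytic and modifier subunits of glutamate-cysteine ligase, the rate-limiting enzyme of glutathione synthesis. Gclc (ENSMUSG00000032350, chr9:77754535-77794485, + strand) was 14.8, 21.7, 36.3, 9.41, 10.8 and 18.6 TPM in libraries labelled ErbB4myeKO and 14.0, 5.90, 25.4, 4.85, 11.6 and 9.80 TPM in ErbB4FF libraries. It was higher in 5 of 6 litters, by 3.48-fold in litter 2, and was slightly lower in litter 5. Its mean log2 ratio was 0.68 ± 0.68 (SD, n = 6, limma SE 0.24, adjusted p = 0.603, exact permutation p = 0.0938) and 0.63 without litter 6.

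Gclm (ENSMUSG00000028124, chr3:122245557-122270732, + strand) was 89.0, 60.3, 246, 34.9, 47.4 and 143 TPM in libraries labelled ErbB4myeKO and 83.4, 19.1, 168, 25.7, 37.3 and 117 TPM in ErbB4FF libraries of litters 1 to 6. All 6 pairs went the same way, with litter 2 again the farthest apart (3.10-fold). The mean log2 ratio of Gclm was 0.56 ± 0.55 (SD, n = 6, limma SE 0.19, adjusted p = 0.603, exact permutation p = 0.03125), 0.34 without litter 2 and 0.61 without litter 6. Its groups overlapped, as litter 3 had the most and litters 2 and 4 the least. The modifier subunit had a higher level than the catalytic subunit in mean TPM (89.2 against 15.3).

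Both members of the thioredoxin system, Txnrd1 and Srxn1, were higher in every litter, Txnrd1 by only 1.01-fold in litter 5. Txnrd1 (ENSMUSG00000020250, chr10:82833951-82897712, + strand), the cytosolic thioredoxin reductase, was 410.4, 442, 754, 331, 171 and 427 TPM in libraries labelled ErbB4myeKO and 393, 213, 616, 202, 169 and 342 TPM in ErbB4FF libraries of litters 1 to 6. The pairs of litters 1 and 5 were nearly equal, whereas litters 2 and 4 were 2.07- and 1.64-fold apart. The mean log2 ratio was 0.41 ± 0.40 (SD, n = 6, limma SE 0.14, adjusted p = 0.603, exact permutation p = 0.03125), and 0.43 without litter 6.

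Srxn1 (ENSMUSG00000032802, chr2:152105516-152111376, + strand), sulfiredoxin, which repairs overoxidized peroxiredoxins, was higher by a mean log2 ratio of 0.56 ± 0.41 (SD, n = 6, limma SE 0.14, adjusted p = 0.603, exact permutation p = 0.03125). Its levels were 154, 108, 354, 104, 141 and 275 TPM in libraries labelled ErbB4myeKO and 137, 44.3, 249.8, 62.1, 107 and 228 TPM in ErbB4FF libraries. No pair differed by less than 1.12-fold, and the ratio was largest in litter 2 (2.42-fold). Among the members Srxn1 had the smallest unadjusted p in limma after Mafg, and its mean log2 ratio was 0.62 without litter 6.

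**Figure D2:**
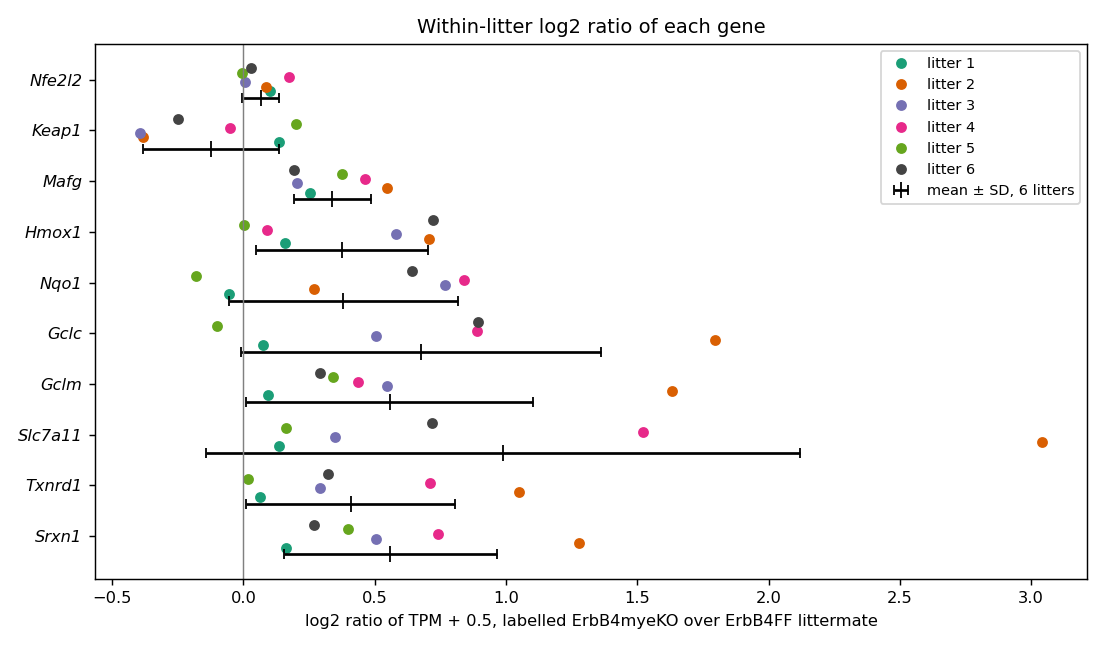
Log2 ratio of TPM + 0.5 within each litter, labelled ErbB4myeKO over ErbB4FF, 1 row a gene and 1 coloured point a litter, with the mean and SD of 6 litters as a black bar. Litter 2 lies farthest right for Mafg, Gclc, Gclm, Slc7a11, Txnrd1 and Srxn1 (3.04 for Slc7a11). All points of Mafg, Hmox1, Gclm, Slc7a11, Txnrd1 and Srxn1 lie above 0, that of Hmox1 in litter 5 only barely.

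Litters differed in how far their members were apart but hardly in the number that went one way. In litters 1, 2, 3, 4 and 6 the library labelled ErbB4myeKO had more of 9 members and less of 1, and in litter 5 it had more of 7 and less of 3. The median log2 ratio of the members was 0.12, 0.88, 0.43, 0.59, 0.09 and 0.31 in litters 1 to 6, while that of all genes tested was between -0.02 and 0.02 in each litter. By its labels litter 6, in which Lyz2 and Lyz1 went against the other litters, had 9 members higher and 1 lower, and with exchanged labels it would have the reverse.

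Summed levels of markers moved with the members in some litters. The summed M1 activation markers (6 of 6 detected) were higher in the library labelled ErbB4myeKO in 5 of 6 litters, with log2 ratios of 0.17, 0.90, 0.08, 0.47, -0.05 and 0.18 in litters 1 to 6, so that litters 2 and 4, with the largest member ratios, also had the largest M1 ratios. Their sum was 10486 to 24311 TPM in libraries labelled ErbB4myeKO and 9586 to 22962 TPM in ErbB4FF libraries. Such a sum is set mostly by its most abundant genes. Of the 6, Acod1 hardly differed (mean log2 ratio -0.01 ± 0.05, SD, n = 6 litters), and single ratios of the others are not given here. Whether M1 activation has a part in the member ratios was not tested. In bulk RNA, fewer cells of a type and less RNA per cell cannot be told apart.

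Of 5 dendritic cell markers, 2 reached 1 TPM in a library and Flt3, Zbtb46 and Siglech did not. Their sum was 8.95 to 33.4 TPM in libraries labelled ErbB4myeKO and 4.47 to 25.5 TPM in ErbB4FF libraries, higher in the former in 6 of 6 litters. The log2 ratios of this sum were 0.05, 0.38, 0.38, 1.07, 0.03 and 0.71 in litters 1 to 6. Of 8 neutrophil markers, 4 reached 1 TPM (not Ly6g, Mpo, Elane or Retnlg), and the sum was 39.5 to 371 TPM against 39.8 to 184 TPM, higher in libraries labelled ErbB4myeKO in 3 of 6 litters and farthest apart in litter 6 (371 against 153). All 4 proliferation markers were detected, with sums of 20.99 to 39.0 against 12.3 to 44.1 TPM, and so were all 4 stromal markers, with 8.16 to 56.7 against 9.83 to 51.0 TPM. The sums of proliferation, stromal and macrophage markers were each higher in the library labelled ErbB4myeKO in 4 of 6 litters. In litter 2, with the largest member ratios, their log2 ratios were 0.76, 1.34 and 0.45. In litter 4 they were 0.33, -0.80 and 0.26, and in litter 3 -0.17, -0.71 and -0.47, although the members were higher there too. In litter 1 they were -0.14, 0.15 and 0.03, in litter 5 0.14, 0.86 and -0.06, and in litter 6 0.38, 0.62 and 0.10. Whether such cells have a part in the member ratios was not tested.

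Between genes, levels in TPM are per transcript length and can be put in order. The mean over 12 libraries was 1009 TPM for Hmox1, 372 for Txnrd1, 327 for Nfe2l2, 164 for Srxn1, 127 for Slc7a11, 89.2 for Gclm, 41.0 for Keap1, 37.0 for Mafg, 15.3 for Gclc and 4.36 for Nqo1. Of 9 pairs of neighbours, 4 kept their order in 6 of 6 litters (Hmox1 over Txnrd1, Nfe2l2 over Srxn1, Mafg over Gclc and Gclc over Nqo1), each with an exact permutation p of 0.03125 and 0.0703 after Benjamini-Hochberg adjustment over the 9. The other 5 pairs changed order in at least 1 litter (adjusted p 0.169 to 0.562, exact permutation), so that none of the 9 pairs passed 0.05 after adjustment. The pairs were set by the same mean levels. Differences of the log2 level were 1.23 ± 1.31 (SD, n = 6) for Hmox1 over Txnrd1 and 1.71 ± 0.62 (SD, n = 6) for Gclc over Nqo1, while Txnrd1 over Nfe2l2 was 0.10 ± 0.30.

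The spread between litters was larger than that between genotypes. Each litter has its own batch letter on the labels, so litter and batch cannot be told apart. The highest litter mean was 20.0-fold above the lowest for Slc7a11, 6.83-fold for Gclm, 6.14-fold for Hmox1 and 2.03-fold for Mafg. Litter 3 was highest for Nfe2l2, Mafg, Gclc, Gclm, Slc7a11, Txnrd1 and Srxn1 and lowest for Keap1. Litter 5, with its low macrophage markers, was lowest for Nfe2l2, Mafg, Slc7a11 and Txnrd1 and highest for Keap1 and Hmox1. 

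**Figure D3:**
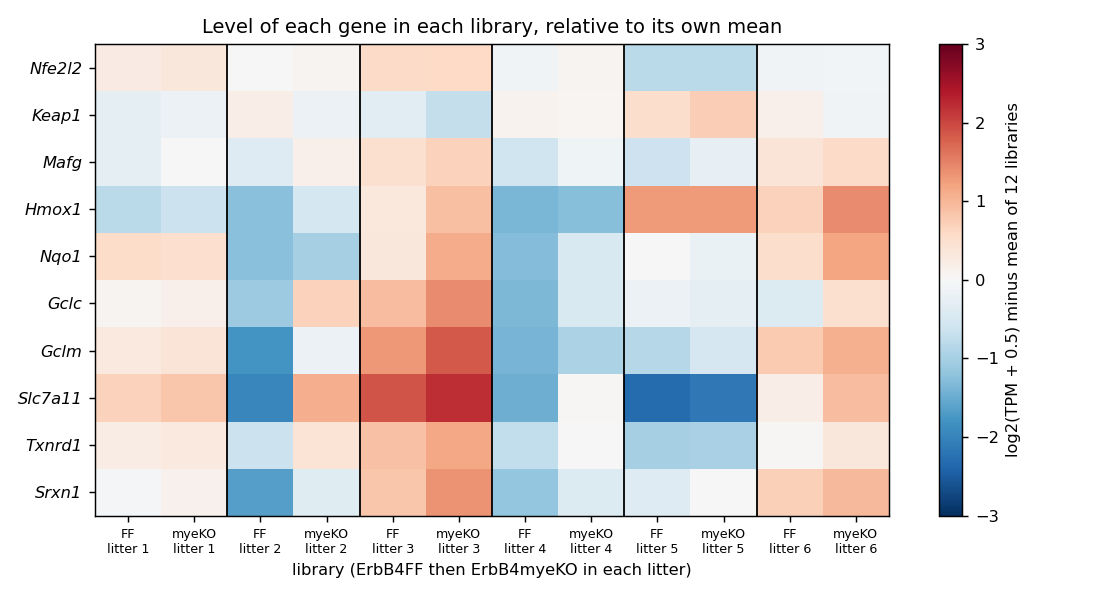
Log2(TPM + 0.5) of each member in each of 12 libraries minus the mean of that gene, red above and blue below, with black lines between litters. Littermates are mostly alike in colour, litter 3 is the highest for 7 members, and litter 5 is low for Slc7a11 and high for Hmox1 and Keap1.

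Over the 12 libraries, which share litters and are described here without a test, Keap1 ran opposite to Nfe2l2 (Pearson's r = -0.93 of the log2 levels, n = 12, and -0.84 over the 10 libraries outside litter 5). Txnrd1 and Slc7a11 ran with Nfe2l2 (r = 0.87 and 0.85, and 0.79 and 0.72 outside litter 5), and with each other at 0.99. Hmox1 did not, at -0.36, or 0.22 outside litter 5. The remaining members had r between 0.29 (Nqo1) and 0.58 (Mafg). Outside litter 5 their r was 0.43 (Mafg) to 0.73 (Gclc), so that Gclc was then as near to Nfe2l2 as Slc7a11 was. Gclm and Srxn1 were alike at 0.96. The genes of all those tested whose levels were most like Nfe2l2 were Gabpa (0.99), Fpr2 (0.98), Casc3 (0.98), Crkl (0.98) and Nlrp3 (0.97), and these had r of 0.91 to 0.98 outside litter 5.

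By transcript, 9 of the 18 member transcripts that passed the filter had an unadjusted p under 0.05 in limma and were higher in libraries labelled ErbB4myeKO, against 3.12% of 10085 transcripts. The genes Nfe2l2, Hmox1, Nqo1, Gclc, Srxn1 and Slc7a11 have 1 transcript each in the table. Both transcripts of Gclm were higher, ENSMUST00000178826 by a mean log2 ratio of 0.53 ± 0.51 (SD, n = 6, 6 of 6 litters) and ENSMUST00000029769 by 0.70 ± 0.75 (5 of 6 litters). The main Txnrd1 transcript, ENSMUST00000020484, had 0.39 ± 0.41 (5 of 6 litters). ENSMUST00000219442 of Txnrd1 was as variable as -0.30 ± 2.64, and its 31-base words are 94.2% shared with the other Txnrd1 transcripts, so that the division of reads among them is uncertain. The third, ENSMUST00000219962, whose words are 100.0% shared, is among the 9 and had 1.20 ± 1.44 (5 of 6 litters).

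The main Mafg transcript, ENSMUST00000058162, was higher in 6 of 6 litters by a mean log2 ratio of 0.22 ± 0.18 (SD, n = 6), less than the 0.34 of the gene. The 3 other Mafg transcripts had 0.37 to 0.73, at low levels of 0.54 to 4.16 mean TPM in a group. The main Keap1 transcript, ENSMUST00000194542, was lower in 5 of 6 litters (-0.16 ± 0.32). Each of the 4 Keap1 transcripts shares 11.9 to 20.0% of its 31-base words with the annotated gene Gm16754, and the main Mafg transcript shares 1.92% with Sirt7, so that reads there may have been divided between genes. The Slc7a11 transcript shares 3.92% of its words with 2907 other genes, Gclm ENSMUST00000029769 shares 2.97% with 1124, and Srxn1 shares 0.755% with 15.

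Other genes of the pathway were taken from 3 lists written by hand. Of 15 other regulators of NRF2, 12 were tested, 2 were higher and 0 lower at an unadjusted p under 0.05 in limma, against 3.83% and 4.38% of all genes, and the median log2 ratio was -0.01. The 2 were Nfe2l1, a relative of NRF2 that binds the same elements, and Sqstm1, the autophagy receptor p62 that sequesters KEAP1 and is itself a target of NRF2. Nfe2l1 was 57.9 ± 24.0 TPM against 48.1 ± 21.7 TPM (SD, n = 6), with a mean log2 ratio of 0.35 ± 0.26, and Sqstm1 was 888 ± 345 TPM against 762 ± 389 TPM, with 0.29 ± 0.21. Both were higher in 6 of 6 litters (exact permutation p = 0.03125, limma adjusted p = 0.603). Acod1, the enzyme that makes itaconate, an activator of NRF2, and also one of the M1 markers, was 4557 ± 811 TPM against 4585 ± 741 TPM (log2 ratio -0.01 ± 0.05).

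Of 38 other NRF2 target genes, 32 were tested, and 5 were higher and 1 lower at an unadjusted p under 0.05, against 3.83% and 4.38% of all genes. The mean ratio was above 0 for 24 and below 0 for 8. The median log2 ratio was 0.09 (0.14 without litter 6), against -0.0007 (-0.0079 without litter 6) over all genes tested. Higher in all 6 litters, as 2.51% of all genes were, were Cat, catalase, with a mean log2 ratio of 0.43 ± 0.37 (SD, n = 6) and Taldo1, a transaldolase of the pentose phosphate pathway, with 0.20 ± 0.21. None of the most abundant targets had an unadjusted p under 0.05. These were the ferritin chains Fth1 (27925 ± 6716 against 27854 ± 8143 TPM) and Ftl1 (7742 ± 2344 against 7375 ± 2238 TPM), and the peroxiredoxin Prdx1 (5492 ± 1731 against 4845 ± 1539 TPM, log2 ratio 0.19 ± 0.30).

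Of 24 other glutathione and thioredoxin genes, 20 were tested, and 1 was higher and 1 lower at an unadjusted p under 0.05, near the 3.83% and 4.38% of all genes. None went the same way in 6 litters, against 2.51% of all genes higher and 2.31% lower. Their median log2 ratio was -0.04, and 0.0026 without litter 6. The most abundant were Prdx5 (847 ± 176 against 827 ± 234 TPM), Glrx (679 ± 146 against 746 ± 184 TPM) and Msrb1, a methionine sulfoxide reductase (123 ± 51.5 against 143 ± 47.2 TPM, log2 ratio -0.25 ± 0.26, lower in 4 of 6 litters). No gene of the 3 lists passed an adjusted p of 0.05 (smallest 0.603, limma).

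**Figure D4:**
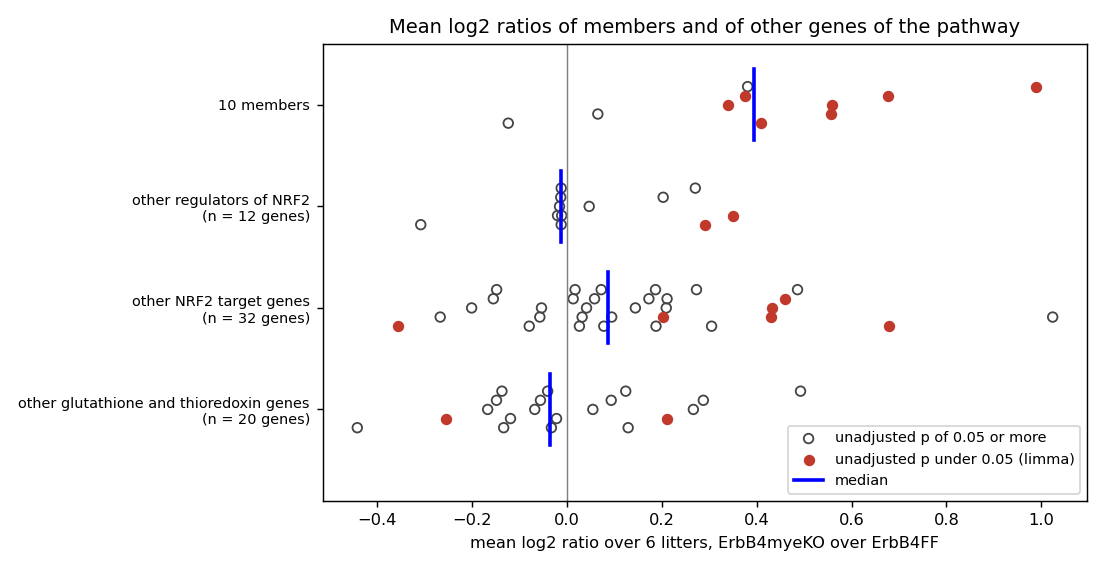
Mean log2 ratio over 6 litters, labelled ErbB4myeKO over ErbB4FF, for the 10 members and for the tested genes of 3 lists, 1 point a gene, filled red where the unadjusted p in limma was under 0.05, with the median of each list as a blue line. The median was 0.39 for the members and -0.01, 0.09 and -0.04 for the lists.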

How the data were processed

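RNA of M1-activated BM-Mɸs from 6 ErbB4myeKO and 6 ErbB4FF littermate mice was sequenced by the authors with a stranded mRNA kit as 75 bp single-end reads. Per the labels, the build is mm10 and the tools are CASAVA, kallisto and sleuth, with versions not given in the sources used here. The authors deposited TPM per transcript for APPRIS principal isoforms, so that the values of a library cover part of its TPM, and, per transcript, the natural log of normalized counts averaged over libraries, used here only as a depth. The deposited p-values, q-values and ratios of sleuth were not used.

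Repeated transcript lines were dropped (29213 lines, 28808 transcripts) and TPM were summed per gene. Positions are from GENCODE M21 (GRCm38), promoters from RefSeq (GRCm38.p6). Values were fitted as log2(TPM + 0.5), so ratios of low genes are understated, for genes averaging 1 TPM or more, with limma 3.58.1 in R 4.3.3 (lmFit, eBayes with trend), a block for litter, and p-values adjusted over all genes by Benjamini-Hochberg. For single genes an exact permutation test (two-sided) used all 64 exchanges of genotype labels between littermates (smallest p 0.03125, and 0.0625 with 5 litters). Python 3.11.15 was used. The fit was also run on simulated data as a check of the code, and no result of that run is used here. The labels give litter as a batch letter, and the deviations of littermates correlated at 0.273 to 0.774. Read depth is not in the files, so precision rests on the spread between litters.

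The members, the lists and the tests were chosen with earlier results of these data known. Every member is named. Of each list, genes are named that had an unadjusted p under 0.01, went the same way in 6 litters or were among the 3 highest in TPM. Alternatives were no block, a Y-linked covariate in place of sex (which is not on the labels), pseudocounts of 0.1 and 1, no filter or a mean of 5 TPM, median-ratio rescaling, limma without trend, the transcript with the highest mean alone, and each litter left out.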

Additional observations from a re-analysis of the deposited data

Results flagged for a closer look

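Of 30 groups of 6 values looked at (the 2 groups of libraries and the within-litter ratios of each member), 1 held a value far from the rest, where chance gives about 1 in 20. It was the log2 ratio of Gclm in litter 2, at 1.63, with the nearest litter at 0.55, and its gap was 0.706 of the whole range, above Dixon's 95% critical value for 6 values. No reason was tested.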

How the results depend on the processing

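Without litter as a replicate block, 75 genes in place of 721 had an unadjusted p under 0.05, and 0 members in place of 7. Leaving out each litter gave 413 to 864 such genes (413 without litter 2, 458 without litter 4) and 4 to 8 such members (4 without litter 4, 5 without litter 6), while 0 to 1 genes passed an adjusted p of 0.05 (1 without litter 3). Of 149 alternative values of the members' ratios, 135 kept their direction and side of an unadjusted p of 0.05, 12 lost it (7 without the block, 5 with a litter left out: Gclc and Slc7a11 without litter 4 or 6, Txnrd1 without litter 4), 2 gained it (Nqo1 without litter 1 or 5) and 0 reversed. Without the block, with another filter or without trend a ratio cannot change, so its direction there was fixed in advance. The same holds for the main transcript alone in genes with 1 transcript. The Y-linked covariate, both pseudocounts, both filters, rescaling, limma without trend and the main transcript alone each left 7 members at an unadjusted p under 0.05, and 9 with a mean above 0 except at a mean of 5 TPM, where Nqo1 is not tested. As Y-linked levels were alike within each pair, the covariate, added to the litter block, could not test sex. In every litter, 5 members were higher with the main transcript alone, 4 with rescaling and 8 without litter 5. Depth per library is not in the files, and with 5 litters no exact p can fall under 0.05.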
